A study of Mus musculus with 12 samples.

Results

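The mitotic genes are 36 genes whose products carry cells through division: cyclins and CDK1, the kinases that start mitosis and build the spindle, the chromosomal passenger complex, the spindle checkpoint, the ubiquitin system of anaphase, kinetochore proteins, kinesins, cytokinesis factors and chromosome proteins. They were chosen by name, with earlier results of these data known. A probe belonged to a member if its gene name in the files was the member's symbol or a synonym, and where a gene had several probes the one with the highest mean log2 signal over the 12 arrays stood for it. All 36 were found, among 22977 genes tested, on 52 probes. Of the 36 chosen probes, 33 were well above background on all 12 arrays. Cenpf was so on 8 arrays, Ttk on 11 and Cenpa on 11, with the spot of Cenpa left out as an outlier on replicate 1 of the knockout group at 24 h.

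RNA came from macrophages grown out of the bone marrow of 2 Commd1 knockout and 2 wildtype mice. Marrow was cultured for 10 days with GM-CSF at 20 ng/mL, and each mouse gave 1 untreated sample and 2 that received lipopolysaccharide (LPS, a cell wall component of Gram-negative bacteria) at 10 ng/mL for 3 h or 24 h. This gave 6 groups of 2 samples: knockout untreated, knockout LPS 3 h, knockout LPS 24 h, wildtype untreated, wildtype LPS 3 h and wildtype LPS 24 h, each sample on its own single-colour Agilent array. COMMD1, the product of the targeted gene, is a subunit of a complex that sorts membrane proteins at endosomes and is also known for limiting NF-kB. The labels call the mice Commd1 knockout, and the allele, strain, age and sex are not given in the sources used here.

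Mitosis starts when cyclin B bound to CDK1 is switched on, and it ends when the anaphase-promoting complex, activated by CDC20, marks cyclin B and securin for destruction. Transcripts of most mitotic genes are made only in G2 and M phase, under the DREAM, B-MYB-MuvB and FOXM1 regulators, so their level in a culture follows the share of cells that are dividing. Marrow-derived macrophages divide in the presence of a colony-stimulating factor, and LPS is known to stop that division in mouse macrophages.

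A level is the log2 processed signal of a probe minus the 75th percentile of its array, and levels are compared between samples only, not between genes. Changes are differences of group means from 1 limma fit over all 12 arrays, given with their SE (n = 2 per group). The 3 samples of a mouse are taken as independent in this fit. A gene is said to rise or fall where its p-value, adjusted over all genes, was under 0.05. In bulk RNA, fewer dividing cells and less mitotic RNA in each cell cannot be told apart. The 3 times lay on 3 slides of 4 arrays, so the effects of slide and of LPS cannot be told apart. The genotypes lay on fixed positions of each slide, so genotype and position cannot be told apart either. Each mouse also kept 1 position on all 3 slides, so mouse and position cannot be told apart.

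Commd1 itself stood between -0.50 and 0.07 on the 6 knockout arrays and between 2.70 and 2.89 on the 6 wildtype arrays, so the groups did not overlap. It had 1 probe, which was well above background on all 12 arrays, so signal remained in the knockout. Between 59.2% and 72.9% of probes on an array were well above background. The lowest share was on replicate 1 of the knockout group at 24 h. This array also had the most outlier spots, 589, with 214 on the next highest. The slope of log signal on spike-in amount, per the file headers, was 0.794 to 0.799 on the knockout and 0.735 to 0.743 on the wildtype arrays of the untreated and 3 h slides, and 0.842 to 0.869 on the knockout and 0.820 to 0.824 on the wildtype arrays of the 24 h slide. The highest slope, 0.869, was on replicate 1 of the knockout group at 24 h. The part of the slope in the differences below was not tested. All 12 macrophage markers were well above background in every group. Of 10 dendritic cell markers 6 to 8 were also well above background, depending on the group, with Xcr1 and Cd209a in no group. Of 14 neutrophil and myeloid progenitor markers 10 to 13 were so, with Ly6g in no group, and their summed level on the linear scale was 22.3 to 25.2 in knockout cells at 24 h, against 21.4 to 21.9 untreated, and 25.9 to 28.0 in wildtype cells at 24 h, against 23.1 to 25 untreated. That sum was mostly the signal of Elane, the neutrophil elastase gene, at 4.38 and 4.56 in knockout cells at 24 h, against 4.34 and 4.39 untreated, and it does not show the dim progenitor markers. Cd34, a marker of blood progenitors, had -7.63 and -6.26 in knockout cells at 24 h, where it was not well above background, against -4.08 and -3.66 untreated, and -6.81 and -6.56 in wildtype cells at 24 h, against -4.07 and -4.11 untreated. Kit, the stem cell factor receptor of progenitors, had -5.68 and -5.31 in knockout cells at 24 h, against -4.88 and -4.37 untreated, and -5.28 and -5.40 in wildtype cells at 24 h, against -3.46 and -3.05 untreated. Both genes were thus lower at 24 h in every mouse, with an adjusted p of 0.00166 for Cd34 and 9.02e-05 for Kit in wildtype cells and of 0.000509 for Cd34 and 0.0077 for Kit in knockout cells (limma). Of the 13 markers of this list that were measured, 4 were lower and 3 higher in knockout cells at 24 h. In wildtype cells 2 were lower and 2 higher. Of all genes 31.5% were lower and 26.0% higher in knockout cells, and 26.4% lower and 23.6% higher in wildtype cells. The median change over the 13 was 0.12 in knockout and 0.21 in wildtype cells. The part of Cd34 and Kit in the falls of the mitotic genes at 24 h was not tested.

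After 24 h of LPS nearly all mitotic transcripts had fallen in both genotypes. In knockout cells 34 of the 36 were lower than in untreated knockout cells, against 31.5% of all genes tested, and 1 was higher, against 26.0%. In wildtype cells 35 were lower, against 26.4% of all genes, and 1 was higher, against 23.6%. The median change over the 36 was -2.92 in knockout cells, with -0.07 over all genes, and -2.26 in wildtype cells, with -0.04 over all genes. The same 34 genes fell in both genotypes, which is 100.0% of those that fell in knockout and 97.1% of those that fell in wildtype cells. Cenpf fell past the threshold in wildtype cells only, and the difference of its response between genotypes did not pass the test (2.11 ± 1.35, adjusted p = 0.516). The single riser in both was Tpx2, whose 2 probes disagree. Taken mouse by mouse, the median change at 24 h was -2.79 and -2.98 in the knockout mice and -2.25 and -2.31 in the wildtype mice.

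**Figure D1:**
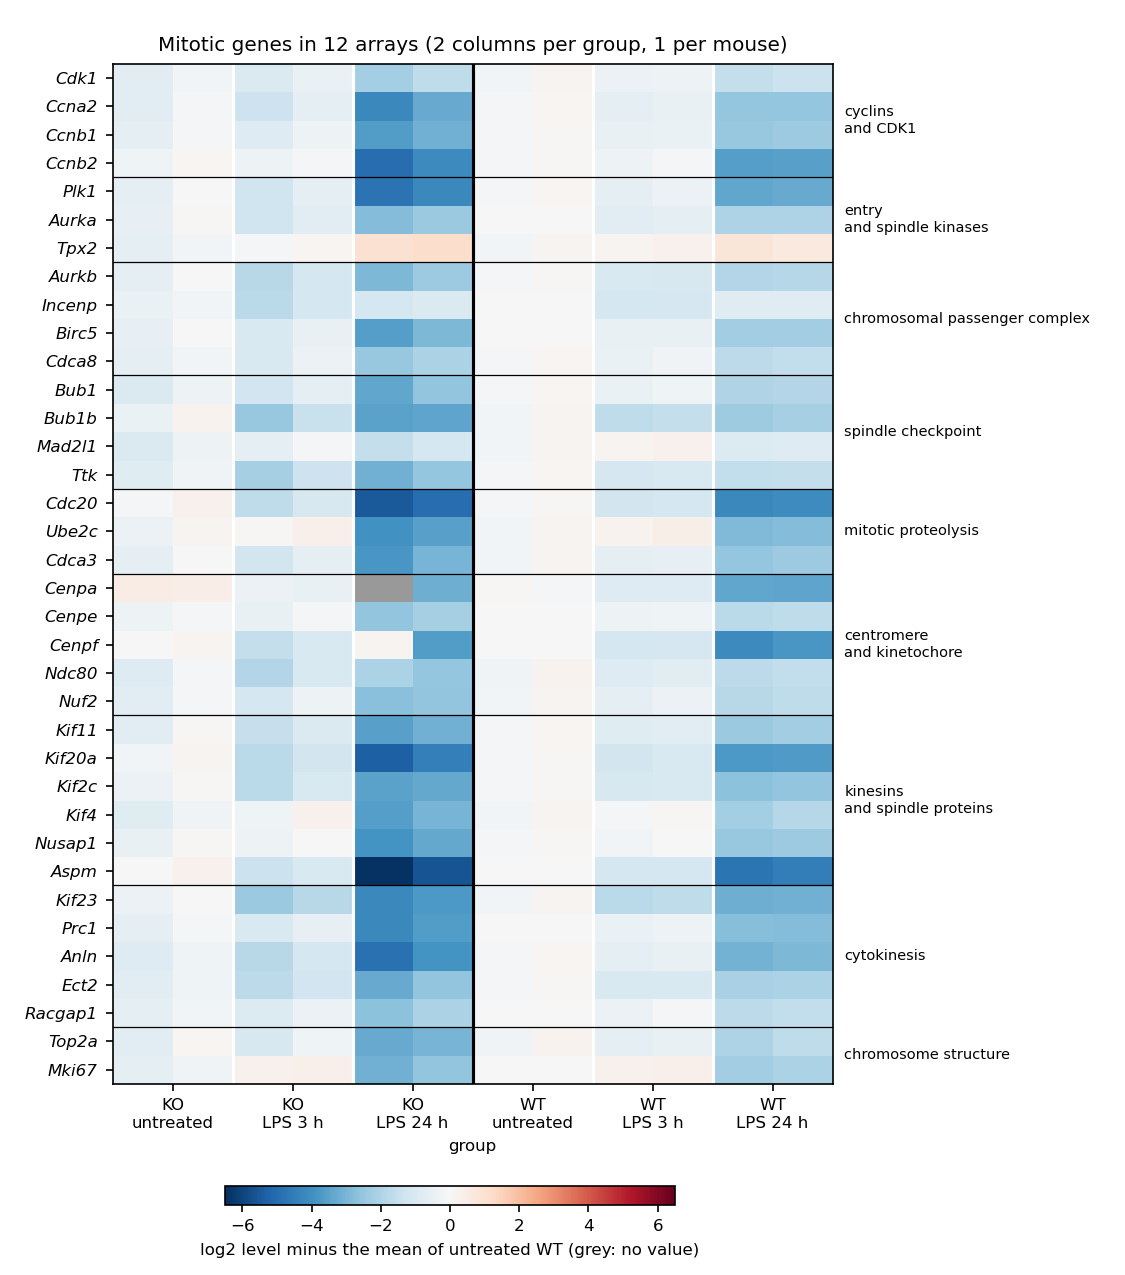
Heat map of the 36 mitotic genes (rows, ordered by role) in the 12 arrays (2 columns per group, replicate 1 left of replicate 2). Colour is the log2 level minus the mean of the 2 untreated wildtype arrays, and grey marks the missing Cenpa spot. The columns at 24 h of LPS are the darkest blue in both genotypes, and Tpx2 is the row that turns red there.

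All 4 genes of the cyclins and CDK1 fell by 24 h in both genotypes. Ccnb2, which encodes cyclin B2, stood at 3.24 and 3.68 in untreated knockout cells, 3.18 and 3.42 at 3 h and -1.40 and -0.58 at 24 h. Its wildtype levels were 3.44 and 3.63 untreated, 3.19 and 3.41 at 3 h and -0.07 and 0.02 at 24 h. The change at 3 h passed in neither genotype and the level was lower at 24 h in every mouse. The change at 24 h was -4.45 ± 0.26 in knockout (adjusted p = 2.64e-06) and -3.56 ± 0.26 in wildtype cells (adjusted p = 1.36e-05), or 21.9-fold in knockout and 11.8-fold in wildtype cells. Ccnb1, the gene of cyclin B1, had 2.25 and 2.76 in untreated knockout cells, 2.02 and 2.54 at 3 h and -0.79 and -0.24 at 24 h, and in wildtype cells 2.81 and 2.92, then 2.38 and 2.43, then 0.39 and 0.48. Ccnb1 fell, with changes of -3.02 ± 0.24 in knockout and -2.43 ± 0.24 in wildtype cells over 24 h. Ccna2, the gene of cyclin A2, fell, with changes of -3.33 ± 0.34 in knockout and -2.50 ± 0.34 in wildtype cells. Cdk1, their catalytic partner, was among the members that moved least. It had 1.61 and 2.19 in untreated knockout cells, 1.39 and 1.93 at 3 h and 0.12 and 0.70 at 24 h, and in wildtype cells 2.17 and 2.53, then 1.98 and 2.01, then 0.81 and 0.93. Cdk1 fell, with changes of -1.49 ± 0.27 in knockout and -1.48 ± 0.27 in wildtype cells, or 2.81-fold in knockout and 2.79-fold in wildtype cells.

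Among the mitotic kinases, Plk1, which drives entry, centrosome maturation and cytokinesis, had 2.58 and 3.14 in untreated knockout cells, 1.92 and 2.56 at 3 h and -1.59 and -0.99 at 24 h. The wildtype values were 3.06 and 3.32, then 2.61 and 2.80, then -0.17 and -0.09. Plk1 fell, with changes of -4.14 ± 0.28 in knockout and -3.32 ± 0.28 in wildtype cells over 24 h. Aurka, the kinase of the spindle poles, fell, with changes of -2.36 ± 0.25 in knockout and -2.02 ± 0.25 in wildtype cells.

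The chromosomal passenger complex pairs the kinase AURKB with INCENP, survivin (Birc5) and borealin (Cdca8), and corrects wrong attachments of chromosomes to the spindle. All 4 genes fell by 24 h in both genotypes. Aurkb had -1.19 and -0.65 in untreated knockout cells, -2.41 and -1.72 at 3 h and -3.50 and -2.98 at 24 h, and in wildtype cells -0.67 and -0.53, then -1.61 and -1.62, then -2.49 and -2.43. It fell by 24 h, with changes of -2.32 ± 0.26 in knockout and -1.87 ± 0.26 in wildtype cells. Incenp, the scaffold, took another course: 4.36 and 4.62 in untreated knockout cells, 3.06 and 3.63 at 3 h and 3.64 and 3.86 at 24 h, and in wildtype cells 4.78 and 4.80, then 3.65 and 3.72, then 4.01 and 4.00. Its lowest level came at 3 h in all 4 mice, and its change at 24 h was small, -0.74 ± 0.18 in knockout (adjusted p = 0.00758) and -0.79 ± 0.18 in wildtype cells (adjusted p = 0.00677). The later step of Incenp, 24 h minus 3 h, did not pass the test in either genotype (0.40 ± 0.18 in knockout and 0.32 ± 0.18 in wildtype cells).

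The spindle checkpoint delays anaphase until every chromosome is attached. All 4 of its genes fell by 24 h in both genotypes, to unequal degrees. Bub1b, the gene of BUBR1, an inhibitor of CDC20, had 0.05 and 0.71 in untreated knockout cells, -2.01 and -0.98 at 3 h and -3.03 and -2.95 at 24 h. In wildtype cells it had 0.31 and 0.63, then -1.18 and -1.08, then -1.86 and -1.71. The change at 24 h was -3.37 ± 0.32 in knockout and -2.26 ± 0.32 in wildtype cells. Bub1 and Ttk, both checkpoint kinases, fell, with changes of -2.33 ± 0.32 and -2.33 ± 0.30 in knockout and -1.91 ± 0.32 and -1.56 ± 0.30 in wildtype cells. Mad2l1, whose product MAD2 holds CDC20 inactive, fell least, by 0.73 ± 0.24 in knockout (adjusted p = 0.0295) and 0.84 ± 0.24 in wildtype cells (adjusted p = 0.0181).

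Genes of mitotic proteolysis were among those that fell furthest. Cdc20, the activator of the anaphase-promoting complex (probe at chr4:118105534-118105593, minus strand, mm9), had 3.23 and 3.66 in untreated knockout cells, 1.74 and 2.32 at 3 h and -2.06 and -1.55 at 24 h. The wildtype values were 3.32 and 3.44, then 2.18 and 2.26, then -0.81 and -0.70. Cdc20 was thus lower at each later time in each mouse, and after 24 h it was down 38.0-fold in knockout (-5.25 ± 0.23, adjusted p = 6.26e-07) and 17.6-fold in wildtype cells (-4.14 ± 0.23, adjusted p = 3.07e-06). Ube2c, the E2 enzyme that loads ubiquitin for the same complex, had 1.10 and 1.64 in untreated knockout cells, 1.54 and 1.81 at 3 h and -2.48 and -2.07 at 24 h, and in wildtype cells 1.28 and 1.64, then 1.68 and 1.82, then -1.43 and -1.36. Its change was -3.64 ± 0.22 in knockout and -2.85 ± 0.22 in wildtype cells at 24 h, while at 3 h it was 0.30 ± 0.22 in knockout and 0.29 ± 0.22 in wildtype cells and did not pass. Cdca3, which takes part in destroying the mitotic inhibitor WEE1, fell, with changes of -3.06 ± 0.30 in knockout and -2.44 ± 0.30 in wildtype cells.

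At the centromere, Cenpa, the histone H3 variant that marks it, had the smallest SE of the members at 24 h. It had 3.47 and 3.44 in untreated knockout cells, 2.60 and 2.54 at 3 h and -0.16 at 24 h in replicate 2, with no value for replicate 1. In wildtype cells it had 3.06 and 2.95, then 2.17 and 2.15, then -0.39 and -0.40. The change at 24 h was -3.62 ± 0.10 in knockout and -3.40 ± 0.08 in wildtype cells. Cenpf, a kinetochore protein, was dim throughout. It had -5.09 and -4.91 in untreated knockout cells, -6.64 and -6.08 at 3 h and -4.94 and -8.73 at 24 h, and in wildtype cells -5.14 and -5.08, then -6.24 and -6.20, then -9.24 and -8.88. At 24 h it was well above background on 1 of the 2 knockout arrays and on neither wildtype array, and in wildtype cells it was at least 3.31-fold lower than untreated (adjusted p = 0.00867). In knockout cells the replicates at 24 h lay far apart and the change did not pass (adjusted p = 0.132). The outer kinetochore genes Ndc80 and Nuf2, partners in the NDC80 complex that grips microtubules, fell, with changes of -1.81 ± 0.34 and -2.27 ± 0.29 in knockout and -1.63 ± 0.34 and -1.70 ± 0.29 in wildtype cells. Cenpe, a kinetochore motor, fell, with changes of -2.17 ± 0.17 in knockout and -1.70 ± 0.17 in wildtype cells.

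All 6 kinesin and spindle genes fell by 24 h in both genotypes. Aspm, which focuses spindle poles (probe at chr1:141390377-141390436, plus strand, mm9), had the largest change of all members: 1.19 and 1.46 in untreated knockout cells, -0.24 and 0.18 at 3 h and -5.24 and -4.44 at 24 h, and in wildtype cells 1.17 and 1.18, then 0.03 and 0.01, then -3.57 and -3.31. It fell 71.7-fold in knockout (-6.16 ± 0.25, adjusted p = 4.09e-07) and 24.5-fold in wildtype cells (-4.62 ± 0.25, adjusted p = 2.64e-06). Kif20a, the midzone kinesin MKLP2, had 2.82 and 3.16 in untreated knockout cells, 1.22 and 1.78 at 3 h and -2.32 and -1.46 at 24 h, and in wildtype cells 2.92 and 3.05, then 1.78 and 2.01, then -0.76 and -0.72. Kif20a fell, with changes of -4.88 ± 0.28 in knockout and -3.73 ± 0.28 in wildtype cells. Kif11, the motor that pushes the poles apart, had -2.25 and -1.48 in untreated knockout cells, -3.05 and -2.45 at 3 h and -5.05 and -4.66 at 24 h, and in wildtype cells -1.68 and -1.39, then -2.30 and -2.21, then -3.95 and -3.79. Kif11 fell, with changes of -2.99 ± 0.28 in knockout and -2.34 ± 0.28 in wildtype cells. Kif2c, a kinesin that shortens microtubules at centromeres, had -0.85 and -0.36, then -2.18 and -1.43, then -3.91 and -3.80 in knockout cells, against -0.54 and -0.36, then -1.51 and -1.43, then -3.12 and -3.03 in wildtype cells. Kif2c fell, with changes of -3.25 ± 0.24 in knockout and -2.62 ± 0.24 in wildtype cells. Nusap1, a spindle protein that bundles microtubules, had 1.14 and 1.69, then 1.29 and 1.63, then -2.27 and -1.71 in knockout cells, against 1.57 and 1.70, then 1.47 and 1.61, then -0.82 and -0.73 in wildtype cells. Nusap1 passed in neither genotype at 3 h (0.04 ± 0.23 in knockout and -0.09 ± 0.23 in wildtype cells) and fell, with changes of -3.41 ± 0.23 in knockout and -2.41 ± 0.23 in wildtype cells at 24 h. Kif4, the chromosome-bound kinesin, fell, with changes of -2.81 ± 0.28 in knockout and -2.03 ± 0.28 in wildtype cells.

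The 5 cytokinesis genes also fell in both genotypes. Kif23, the MKLP1 motor of the spindle midzone, had 1.00 and 1.43 in untreated knockout cells, -1.0 and -0.40 at 3 h and -2.76 and -2.33 at 24 h, and in wildtype cells 1.23 and 1.58, then -0.34 and -0.25, then -1.79 and -1.73. Kif23 fell, with changes of -3.76 ± 0.24 in knockout and -3.17 ± 0.24 in wildtype cells. Anln, the actin-binding protein of the cleavage furrow, had 1.89 and 2.43, then 0.91 and 1.58, then -2.13 and -1.20 in knockout cells, against 2.60 and 2.82, then 2.12 and 2.21, then -0.35 and -0.23 in wildtype cells. Anln fell, with changes of -3.82 ± 0.32 in knockout and -3.00 ± 0.32 in wildtype cells. Prc1, which bundles midzone microtubules, had 3.02 and 3.54, then 2.66 and 3.15, then -0.54 and 0.04 in knockout cells, against 3.67 and 3.66, then 3.23 and 3.32, then 0.88 and 0.87 in wildtype cells. The change was -3.53 ± 0.24 in knockout and -2.79 ± 0.24 in wildtype cells. Ect2, the exchange factor that switches on RhoA at the furrow, and Racgap1, its partner, fell, with changes of -2.46 ± 0.24 and -1.96 ± 0.25 in knockout and -2.10 ± 0.24 and -1.65 ± 0.25 in wildtype cells.

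The 2 chromosome proteins followed the rest at 24 h. Top2a, the topoisomerase that untangles sister chromatids, had 0.62 and 1.46 in untreated knockout cells, 0.28 and 1.08 at 3 h and -1.93 and -1.71 at 24 h, and in wildtype cells 1.10 and 1.57, then 0.73 and 0.86, then -0.65 and -0.32. Top2a fell, with changes of -2.86 ± 0.33 in knockout and -1.82 ± 0.33 in wildtype cells. Mki67, whose product Ki-67 coats mitotic chromosomes and is the usual marker of proliferating cells, had 3.02 and 3.44 in untreated knockout cells, 3.96 and 4.01 at 3 h and 0.54 and 1.12 at 24 h. In wildtype cells it had 3.63 and 3.71, then 3.93 and 4.02, then 1.39 and 1.60. Both genotypes were thus at their highest at 3 h, and by 24 h Mki67 had fallen, with changes of -2.41 ± 0.20 in knockout and -2.17 ± 0.20 in wildtype cells.

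**Figure D2:**
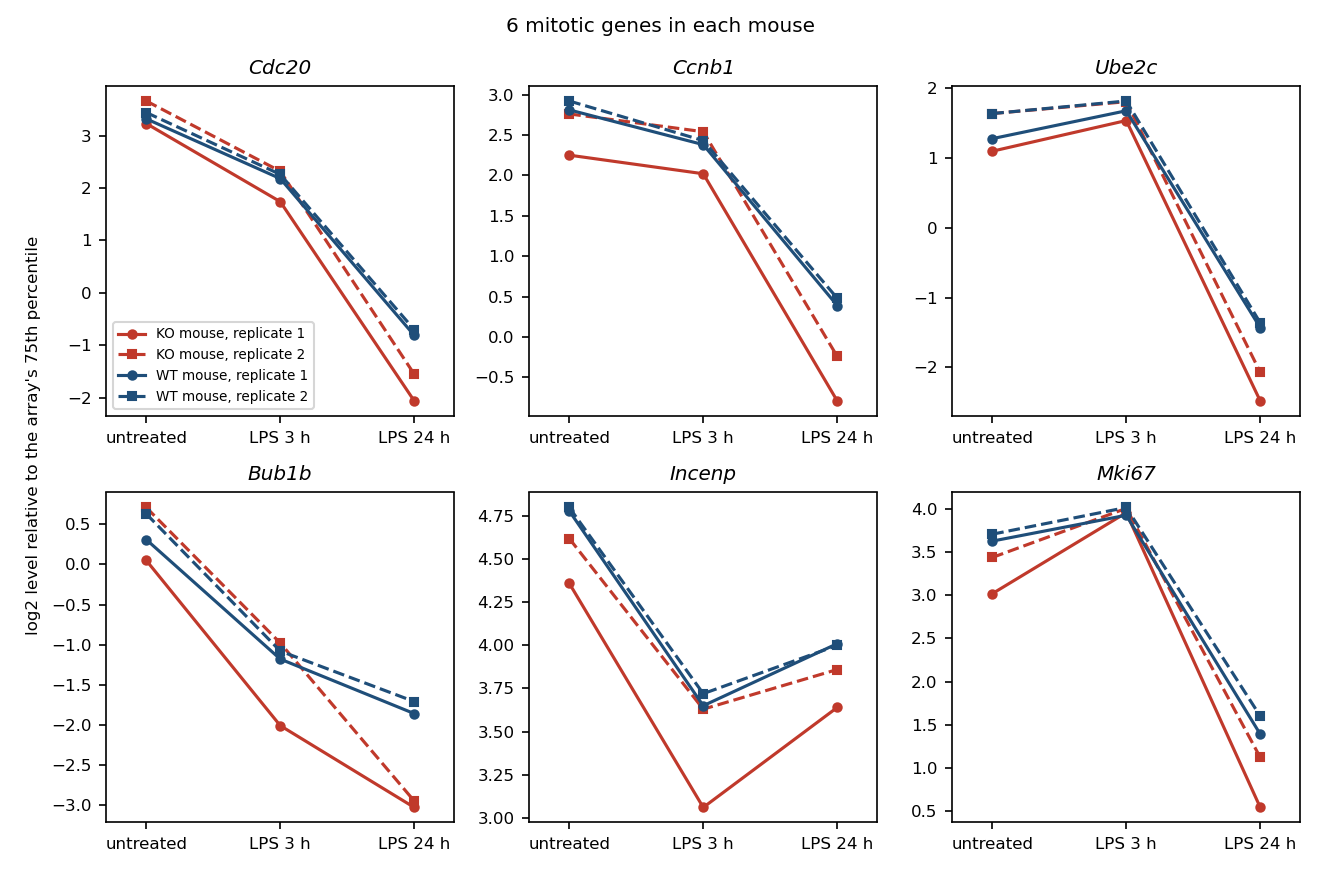
Log2 level relative to the array's 75th percentile (y) of 6 members in each mouse, untreated, at 3 h and at 24 h of LPS (x, not to scale in time); red lines are knockout and blue lines wildtype mice. Cdc20 and Bub1b were lower at 3 h and lower again at 24 h, Ccnb1, Ube2c and Mki67 were far lower only at 24 h, and Incenp was lowest at 3 h.

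The sequence before the transcription start is shown for 6 members that have a window in the RefSeq promoter table (build GRCm38.p6). Of the members with a window and well above background, they had the largest falls in wildtype cells at 24 h. Cenpf, with only a bound on its fall, was not ranked. The windows run 5′ to 3′ on the gene's strand, and end 25 bases after the start. Capitals mark TTTGAA or TTCGAA, the letters of the cell cycle genes homology region (CHR) that the MuvB complexes bind, and CCAAT, the box bound by NF-Y, on either strand.
Aspm, chr1:139454648-139454797, plus strand: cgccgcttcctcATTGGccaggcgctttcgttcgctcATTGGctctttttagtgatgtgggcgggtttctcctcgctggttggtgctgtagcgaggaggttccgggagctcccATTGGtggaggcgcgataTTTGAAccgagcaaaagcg
Cdc20, chr4:118437319-118437468, minus strand: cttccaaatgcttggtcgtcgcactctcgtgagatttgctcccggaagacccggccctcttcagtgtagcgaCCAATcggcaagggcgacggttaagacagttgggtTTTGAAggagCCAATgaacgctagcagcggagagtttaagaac
Ccnb2, chr9:70421530-70421679, minus strand: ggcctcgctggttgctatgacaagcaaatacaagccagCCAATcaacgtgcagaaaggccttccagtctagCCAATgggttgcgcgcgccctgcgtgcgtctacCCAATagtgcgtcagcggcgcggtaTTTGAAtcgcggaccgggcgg
Cenpa, chr5:30666761-30666910, plus strand: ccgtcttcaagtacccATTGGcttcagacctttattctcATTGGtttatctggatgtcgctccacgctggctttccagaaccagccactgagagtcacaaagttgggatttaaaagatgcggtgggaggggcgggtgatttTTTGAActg
Plk1, chr7:122159310-122159459, plus strand: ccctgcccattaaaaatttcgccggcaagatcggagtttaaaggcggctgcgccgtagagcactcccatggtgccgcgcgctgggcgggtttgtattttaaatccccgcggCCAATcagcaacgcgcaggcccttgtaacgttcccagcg
Kif23, chr9:61946775-61946924, minus strand: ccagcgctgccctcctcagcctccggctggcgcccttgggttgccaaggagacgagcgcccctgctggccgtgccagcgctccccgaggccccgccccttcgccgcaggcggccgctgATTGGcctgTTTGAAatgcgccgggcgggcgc
Of these 6, 5 hold both elements in the stretch printed, and Plk1 holds CCAAT there and TTTGAA at position 31 after its start. Over whole windows of 300 bases, 31 members had 33 windows, and 27 of the 33 (81.8%) held TTTGAA or TTCGAA on either strand, against 19.2% of 32851 windows of all genes in the table. CCAAT was in 26 of the 33 (78.8%), against 37.4% of all windows, and both were in 24 (72.7%), against 7.52%. The spellings were counted separately, and neighbouring matches may share end bases. A match of letters is a description and not a binding site. The members were chosen as mitotic genes, so these shares describe that class of genes. The part of these elements in the falls after LPS was not tested. Birc5, Mad2l1, Nuf2 and Nusap1 had a window with none of these letters, and 2 of them, Birc5 and Nusap1, fell by over 2 log2 units in both genotypes.

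At 3 h fewer members than at 24 h passed as lower in the limma fit without pairing by mouse. In knockout cells 15 members were lower than untreated, against 25.7% of all genes, and 1 was higher, against 26.4%. In wildtype cells 12 were lower, against 23.4%, and none was higher, against 23.2%. The median change was -0.58 in knockout cells, with 0.06 over all genes, and -0.54 in wildtype cells, with 0.03 over all genes. All 12 genes that fell in wildtype cells also fell in knockout cells, 80.0% of the knockout list. They were Kif23, Bub1b, Cdc20, Aspm, Incenp, Kif20a, Ttk, Kif2c, Aurkb, Ect2, Cenpa and Aurka. Anln, Kif11 and Ndc80 passed in knockout cells only, and for none of the 3 did the difference between genotypes pass the test. With the mouse as a block, which uses the pairing of samples within a mouse, 22 members were lower and 3 higher in knockout cells and 26 were lower in wildtype cells. Without replicate 2 of the untreated wildtype group 7 passed in wildtype cells.

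The largest early falls were of Kif23, with -1.91 ± 0.24 in knockout (adjusted p = 0.000193) and -1.70 ± 0.24 in wildtype cells (adjusted p = 0.000505), and of Bub1b, with -1.87 ± 0.32 in knockout and -1.60 ± 0.32 in wildtype cells. Cdc20, Aspm and Kif20a followed, with -1.42 ± 0.23, -1.36 ± 0.25 and -1.49 ± 0.28 in knockout and -1.16 ± 0.23, -1.15 ± 0.25 and -1.09 ± 0.28 in wildtype cells. None of the 4 cyclin and CDK1 genes passed at 3 h in either genotype in the limma fit without pairing by mouse. There Ccnb2 changed by -0.16 ± 0.26 in knockout and -0.23 ± 0.26 in wildtype cells. All 4 genes were nonetheless lower at 3 h than untreated in every mouse. Ccna2 changed by -0.61 and -0.57 in the knockout and by -0.53 and -0.61 in the wildtype mice. For Ccnb2 the values were -0.07 and -0.26 in the knockout and -0.25 and -0.22 in the wildtype mice. In the fit without pairing the 1 early riser was Mki67, at 0.75 ± 0.20 in knockout cells (adjusted p = 0.012). In wildtype cells it was at 0.30 ± 0.20 (adjusted p = 0.243), and the difference of 0.45 ± 0.28 did not pass (adjusted p = 0.587). Between 3 h and 24 h, 32 members fell in knockout cells, against 32.6% of all genes lower and 26.3% higher. In wildtype cells 31 fell, against 26.9% lower and 25.7% higher. Tpx2 was the 1 riser in each.

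**Figure D3:**
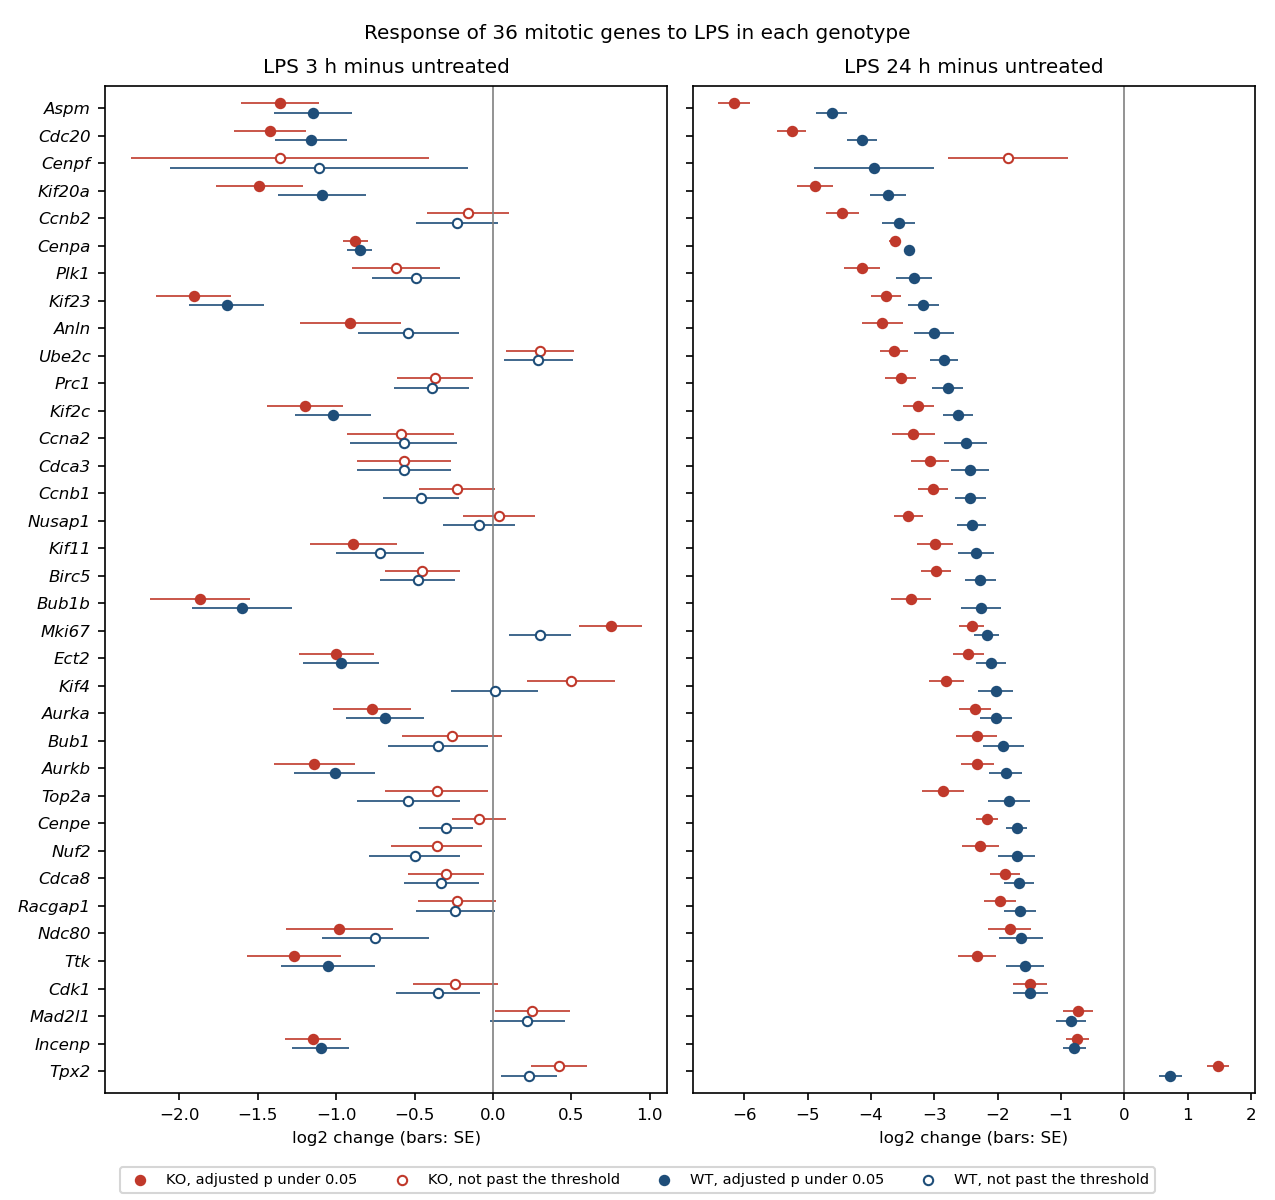
Log2 change of each member after 3 h and 24 h of LPS (x, with SE bars), in knockout (red) and wildtype cells (blue), ordered by the wildtype change at 24 h; filled points passed the threshold and open points did not. At 24 h all points but those of Tpx2 lie left of 0, and at 3 h the points spread on both sides, with Kif23 and Bub1b lowest.

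After 24 h of LPS most members were measured lower in knockout than in wildtype cells, and 2 of them passed the test. At 24 h the median difference, knockout minus wildtype, was -0.94 over the 36, with 0.00 over all genes. Aspm (-1.40 ± 0.25, adjusted p = 0.037) and Nusap1 (-1.22 ± 0.23, adjusted p = 0.0399) were lower in knockout cells, 2 of 36 against 1.67% of all genes, and no member was higher, against 0.718%. For both genes the knockout values at 24 h lay below the wildtype values, -5.24 and -4.44 against -3.57 and -3.31 for Aspm and -2.27 and -1.71 against -0.82 and -0.73 for Nusap1. Before adjustment 30 of the 36 had a p under 0.05. Of the 35 members with 4 values at 24 h, 33 had both knockout values below both wildtype values, against 26.5% of all genes, and 2, Cenpf and Tpx2, had both above, against 27.4%. Cenpf was well above background on 1 of these 4 arrays, a knockout array. With the mouse as a random block 5 members passed, adding Cdc20 (-1.05, adjusted p = 0.0456), Kif4 (-1.27, adjusted p = 0.0458) and Prc1 (-1.13, adjusted p = 0.0409). Without replicate 2 of the knockout group at 24 h 13 passed, and without any 1 of the other arrays at 24 h 0 passed.

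Before LPS the difference over the members was smaller. In untreated cells the median was -0.33, with 0.04 over all genes, and 0 members were lower, against 3.07% of all genes. Cenpa was the 1 member that differed, higher in knockout cells by 0.44 ± 0.08 (adjusted p = 0.0275), against 3.76% of all genes higher, and it did not pass without any 1 of the 4 untreated arrays. At 3 h the median was -0.34, with 0.03 over all genes, and no member passed in limma, against 0.618% of all genes lower and 1.07% higher, with 4 at an unadjusted p under 0.05. Both knockout values lay below both wildtype values for 15 members untreated, against 25.8% of all genes, and for 16 at 3 h, against 26.1%. Both lay above for 2 members untreated, against 32.9%, and for 1 at 3 h, against 33.4%.

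The test of whether LPS moved the members differently in the genotypes gave no call in limma. The difference of the 24 h response, knockout minus wildtype, had a median of -0.60, with -0.05 over all genes, and 0 members passed, against 0.174% of all genes lower and 0.152% higher, with 8 at an unadjusted p under 0.05. The most negative was that of Aspm at -1.55 ± 0.35 (adjusted p = 0.109). With the mouse as a block 3 passed: Aspm (adjusted p = 0.0455), Cdc20 (-1.11, adjusted p = 0.0353) and Nusap1 (-1.0, adjusted p = 0.0429). Without replicate 2 of the knockout group at 24 h 2 passed. The difference of the 3 h response had a median of -0.01 and no call, against 0.00871% of all genes lower and 0.0261% higher, with 0 at an unadjusted p under 0.05. Over the 3 times together, tested between the means of the mice, the median was -0.51 and no gene of any kind passed, which is 0% of all genes, with 10 members at an unadjusted p under 0.05.

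The arrays of the 2 knockout mice differed from each other, and mouse cannot be told apart from array position here. Replicate 2 was above replicate 1 in 35 of 36 members untreated, in 35 of 36 at 3 h and in 33 of 35 at 24 h, by a median of 0.53, 0.57 and 0.54. In wildtype mice the median was 0.21, 0.09 and 0.08. Commd1 was also higher in replicate 2 of the knockout, at -0.01, 0.07 and 0.06, against -0.50, -0.48 and -0.41 in replicate 1. Without replicate 1 of the knockout, the median difference from wildtype was -0.06 untreated, -0.05 at 3 h and -0.67 at 24 h. Without replicate 2 it was -0.62, -0.63 and -1.18. The gap untreated and at 3 h thus rested on replicate 1, and that at 24 h was present with either mouse. The gap at 24 h was wider with replicate 1 alone. The 24 h array of that replicate had the lowest share of probes well above background, 59.2%, and the most outlier spots, 589. The part of that array in the gap was not tested.

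**Figure D4:**
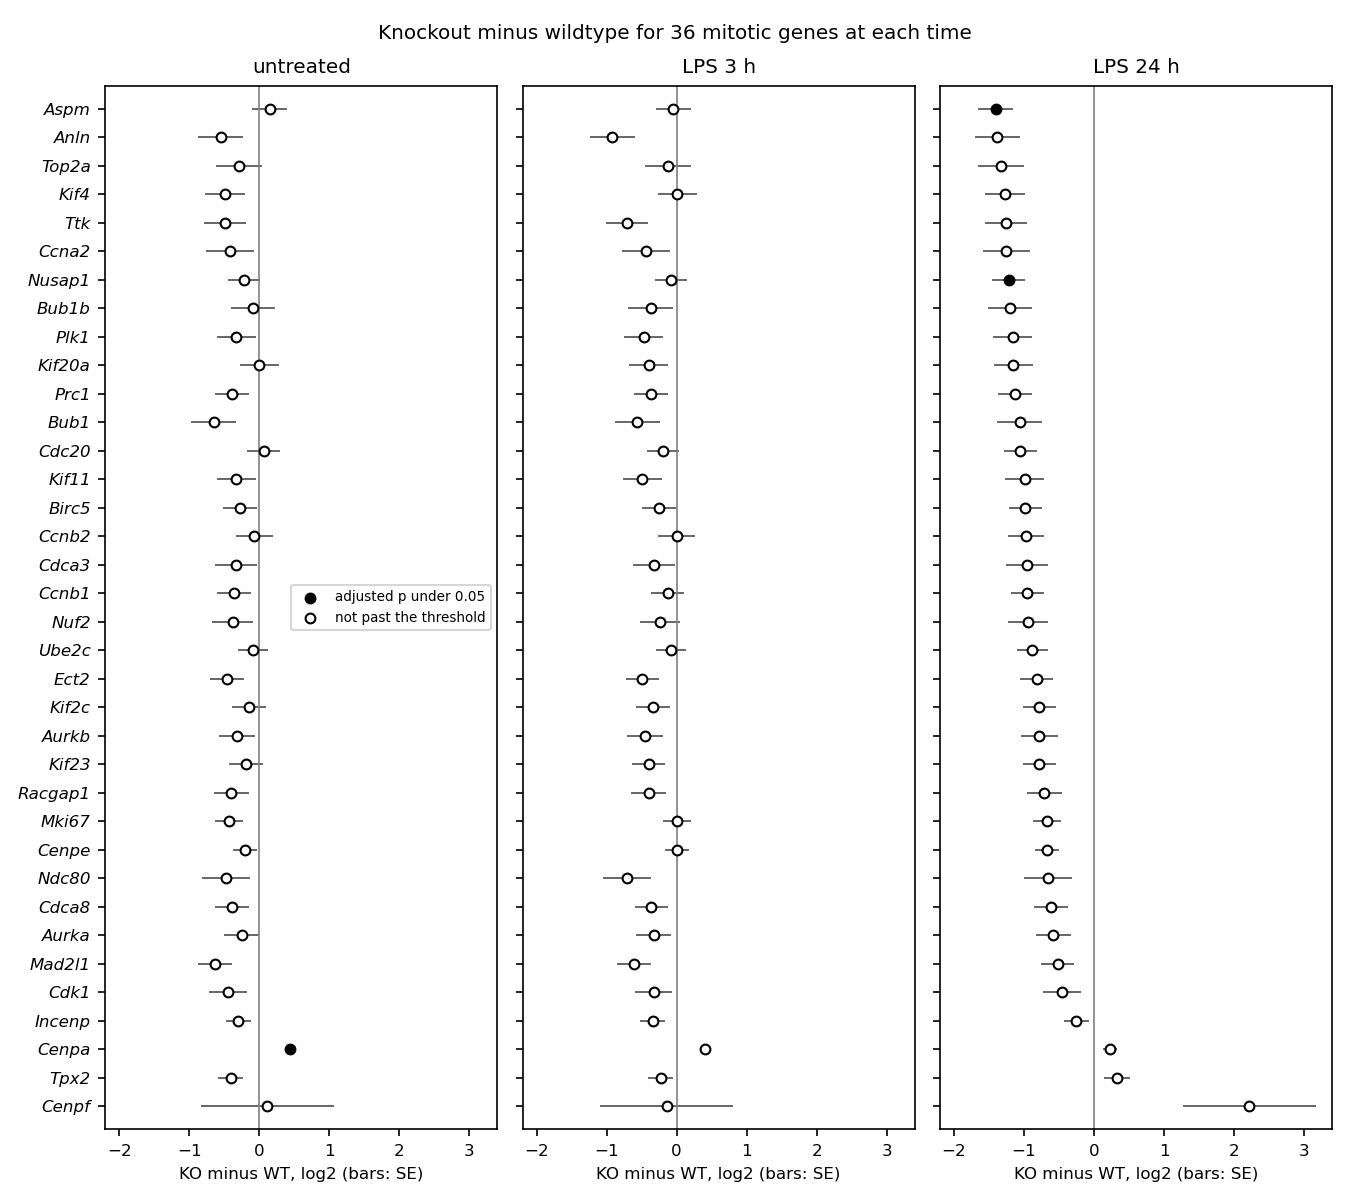
Knockout minus wildtype on the log2 scale (x, with SE bars) for each member untreated, at 3 h and at 24 h of LPS, ordered by the difference at 24 h. Filled points passed the threshold. At 24 h 33 of 36 values lie below 0, and Aspm and Nusap1 are filled.

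The 2 probes of Tpx2 went opposite ways. TPX2 activates Aurora A on spindle microtubules. The brighter probe (chr2:152719476-152719535, mm9), which stood for the gene, had 0.77 and 1.25 in untreated knockout cells, 1.30 and 1.56 at 3 h and 2.42 and 2.57 at 24 h, and in wildtype cells 1.27 and 1.58, then 1.59 and 1.72, then 2.23 and 2.08. It rose by 1.48 ± 0.18 in knockout (adjusted p = 0.000165) and by 0.73 ± 0.18 in wildtype cells (adjusted p = 0.00913). The dimmer probe (chr2:152720285-152720344, mm9) had -3.47 and -2.90, then -3.45 and -2.97, then -3.84 and -3.95 in knockout cells, against -2.92 and -2.73, then -3.09 and -3.01, then -3.87 and -3.92 in wildtype cells. This probe fell, with changes of -0.70 ± 0.20 in knockout (adjusted p = 0.0168) and -1.07 ± 0.20 in wildtype cells (adjusted p = 0.00259). The direction of Tpx2 is therefore uncertain. For the other 11 genes with more than 1 probe, all 25 probes that passed the filter fell in wildtype cells at 24 h.

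**Figure D5:**
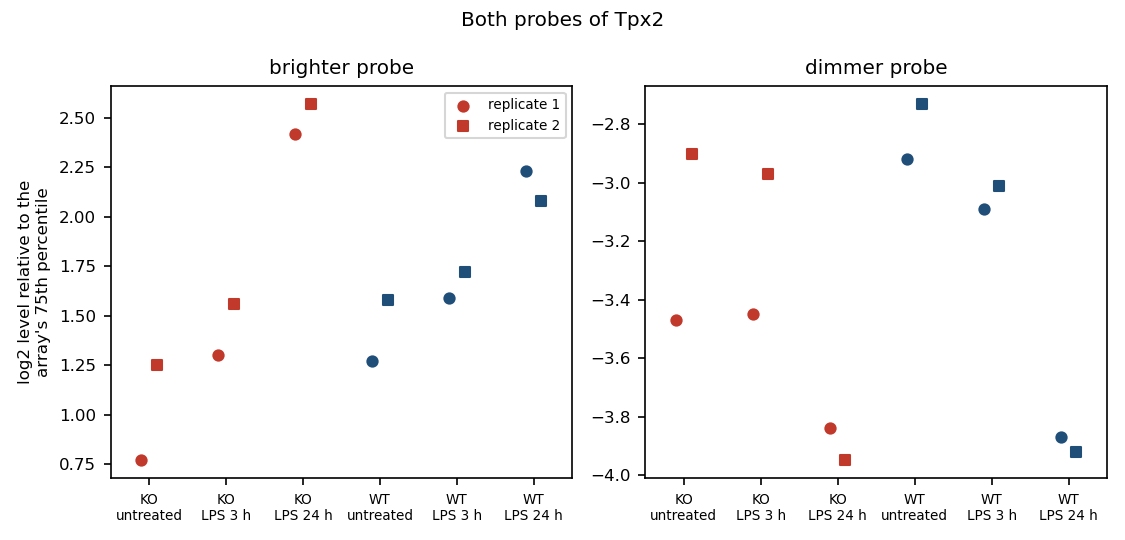
Log2 level relative to the array's 75th percentile (y) of the 2 Tpx2 probes in the 12 arrays, by group (x); red is knockout, blue wildtype, circles replicate 1 and squares replicate 2. The brighter probe is highest at 24 h in both genotypes and the dimmer probe is lowest there.

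Most measured mitotic genes outside the 36 fell as well, on a list that was also chosen with earlier results of these data known. Of 78 measured genes on a list of other mitotic genes, 68 fell and 2 rose in knockout and 66 fell and 1 rose in wildtype cells at 24 h, against 31.5% of all genes lower in knockout and 26.4% in wildtype cells. The medians were -1.98 in knockout cells, with -0.07 over all genes, and -1.57 in wildtype cells, with -0.04 over all genes. Ckap2, a spindle protein, fell, with changes of -4.92 ± 0.21 in knockout and -3.46 ± 0.21 in wildtype cells. Cdc25c, the phosphatase that activates CDK1, changed by -4.15 ± 0.31 in knockout cells, to a dim -6.34 and -6.32 at 24 h. Zwint, a kinetochore protein, rose by 0.61 ± 0.09 in knockout and 0.37 ± 0.09 in wildtype cells. Pttg1, the gene of securin, had the largest increase of the list in knockout cells at 24 h, 1.05. Its levels there were 3.27 and 3.42 untreated and 4.26 and 4.53 at 24 h. In wildtype cells they were 3.23 and 3.72, then 4.03 and 3.13. Between genotypes at 24 h 5 of the 78 were lower in knockout cells: Cit, Ckap2, Ckap2l, Nek2 and Gtse1, against 1.67% of all genes. Cit was dim there, at -6.55 and -7.37 in knockout and -5.55 and -4.93 in wildtype cells, so the size of its difference is uncertain. The list median was -0.79, with 0.00 over all genes.

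DNA replication genes were seldom lower at 24 h than untreated. Of 39, 2 were lower and 9 higher in knockout cells, against 31.5% of all genes lower and 26.0% higher, and 1 was lower and 5 higher in wildtype cells, against 26.4% lower and 23.6% higher. The medians were 0.30 in knockout cells, with -0.07 over all genes, and 0.17 in wildtype cells, with -0.04 over all genes. At 3 h 6 fell and 3 rose in knockout cells, against 25.7% of all genes lower and 26.4% higher, and 15 fell and 2 rose in wildtype cells, against 23.4% lower and 23.2% higher. Between 3 h and 24 h 20 rose and 1 fell in each genotype, against 26.3% of all genes higher in knockout and 25.7% in wildtype cells. The median of knockout minus wildtype over the 39 was -0.78 untreated, -0.56 at 3 h and -0.64 at 24 h. Over all genes it was 0.04, 0.03 and 0.0. Untreated, 37 of the 39 were below 0 and 2 passed as lower, against 3.07% of all genes. At 3 h and 24 h 33 and 34 were below 0, and none passed, against 0.618% and 1.67% of all genes lower. Cdc6, which loads the replicative helicase, fell, with changes of -3.50 ± 0.33 in knockout and -3.19 ± 0.33 in wildtype cells at 3 h. Tyms, the thymidylate synthase gene, rose by 2.47 ± 0.13 in knockout and 2.27 ± 0.13 in wildtype cells at 3 h. Pcna, the sliding clamp of DNA polymerases, was lower in the knockout before LPS (knockout minus wildtype -1.23 ± 0.23, adjusted p = 0.0237). It rose by 1.91 ± 0.23 at 24 h in knockout cells (adjusted p = 0.000156), and in wildtype cells the change was 0.57 ± 0.23 (adjusted p = 0.0668). For Pcna the difference of the 24 h responses, knockout minus wildtype, was 1.33 ± 0.32 (adjusted p = 0.122).

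Of 28 regulators of mitotic gene transcription, 7 fell and 7 rose at 24 h in knockout cells, against 31.5% of all genes lower and 26.0% higher, and 7 fell and 8 rose in wildtype cells, against 26.4% lower and 23.6% higher. These counts lie near those of all genes, with medians of -0.06 in knockout and -0.11 in wildtype cells. Foxm1, the forkhead factor of G2, fell, with changes of -2.18 ± 0.27 in knockout (adjusted p = 0.000197) and -1.65 ± 0.27 in wildtype cells (adjusted p = 0.00128) at 24 h, and its changes at 3 h, -0.57 ± 0.27 in knockout and -0.53 ± 0.27 in wildtype cells, did not pass. Mybl2, which encodes B-MYB, changed by 0.71 ± 0.37 in knockout and 0.17 ± 0.37 in wildtype cells at 24 h and passed in neither. E2f1, a factor of S phase entry, fell at 3 h, with changes of -0.79 ± 0.13 in knockout and -0.78 ± 0.13 in wildtype cells and was higher than untreated at 24 h by 0.41 ± 0.13 in knockout and 0.46 ± 0.13 in wildtype cells. Mxd1, a repressor that competes with MYC for MAX, rose by 3.86 ± 0.18 in knockout and 3.50 ± 0.18 in wildtype cells at 3 h.

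Of 21 G1 cyclins, CDKs and CDK inhibitors, 9 fell and 9 rose in knockout and 8 fell and 6 rose in wildtype cells at 24 h. Of all genes 31.5% were lower and 26.0% higher in knockout cells, and 26.4% lower and 23.6% higher in wildtype cells. The medians were -0.18 in knockout and -0.14 in wildtype cells. Ccnd1, the gene of cyclin D1, was lower in the knockout before LPS (knockout minus wildtype -1.71 ± 0.37, adjusted p = 0.0361), and it rose by 3.15 ± 0.37 in knockout and 1.37 ± 0.37 in wildtype cells at 24 h. Ccnd2 rose by 5.95 ± 0.27 in knockout and 4.69 ± 0.27 in wildtype cells at 3 h. Cdkn1a, which encodes the CDK inhibitor p21, rose at 3 h by 2.46 ± 0.15 in knockout and 2.68 ± 0.15 in wildtype cells, and at 24 h its changes of -0.18 ± 0.15 in knockout and 0.38 ± 0.15 in wildtype cells did not pass. Of 20 genes of the G2 checkpoint and the anaphase-promoting complex, 8 fell and 3 rose in knockout and 7 fell and 3 rose in wildtype cells at 24 h, against the same shares of all genes, with medians of -0.15 in knockout and -0.25 in wildtype cells.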

How the data were processed

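RNA of 12 samples was hybridised to 12 single-colour arrays. The deposited scanner files hold, per the file headers, a background-subtracted processed intensity for each of 43020 spots that are not controls, with raw mean and background intensity and flags, written by Agilent Feature Extraction 10.7.3.1 per the submitters' processing notes. The deposited value table holds log2 values: 99.5% to 100.0% of detected probes on an array equal the array's log2 processed intensity minus a constant within 0.01. Outlier spots (132 to 589 per array) were left out and no spot was saturated. Spots of 1 probe were averaged, and the 75th percentile of each array was subtracted on the log2 scale.

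Of 39429 probes, 26412 were named by accession, 3854 by symbol and 735 by synonym through RefSeq, and 8428 kept their file name. The filter kept probes detected well above background in both samples of some group (28425), and the brightest stood for its gene (22977 genes). Coordinates of probes are those of the files (mm9). All arrays were fitted in limma 3.58.1 (R 4.3.3, statmod 1.5.0) with a mean per group, 6 residual degrees of freedom and two-sided tests, adjusted by Benjamini-Hochberg over all genes. Over all times, genotypes were compared by fitting the 4 means per mouse. The code was tested on simulated data. Fold bounds for probes below background use the lowest detected signal of each array. Python 3.11.15, numpy 2.4.6, pandas 2.3.3 and matplotlib 3.10.9 were used.

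The labels tie the 3 samples of a replicate number within a genotype to 1 mouse. Deviations from group means, across genes, correlated between samples of a mouse. The values were 0.35, 0.13 and 0.12 in knockout and 0.19, 0.13 and 0.15 in wildtype mice. Each mouse kept 1 array position on every slide, so these values cannot separate mouse from position, and the pairing rests on the labels. The members and gene lists were chosen with earlier results of these data known. All members may be named, and values are given in every sample for the largest changes, for those that differ between genotypes and for a fixed set of 8. Alternatives changed the normalization, background correction, filter, probe choice, block and samples. P-values of the main fit use the spread between the 2 samples of a group, pooled over the 6 groups. That fit takes the 3 samples of a mouse as independent and does not use their pairing. Genotype p-values at a single time thus rest on fewer independent mice, 2 per genotype, than the fit assumes.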

Additional observations from a re-analysis of the deposited data

How the results depend on the processing

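The falls at 24 h depended least on the processing. Of 479 values for single members in knockout and 480 in wildtype cells, 472 in each kept their direction and side of the threshold, 5 and 6 lost the call, and 1 and 2 turned. Tpx2 turned with its probe: with the dimmer probe in its place, chosen after seeing the data, the change at 24 h was -0.70 in knockout and -1.07 in wildtype cells, and 24 h minus 3 h was -0.68 and -0.84. With the mean over probes it was -0.17 in wildtype cells for both. Without replicate 2 of the knockout group at 24 h, Cenpf, 24 h minus 3 h in knockout cells, was 1.42, and without replicate 1 it was -2.37.

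Counts of members called at 3 h rose with the replicate block, which uses the pairing by mouse, to 25 in knockout and 26 in wildtype cells, and with only the groups compared to 24 in wildtype cells. Leaving out 1 array at a time gave 11 to 17 in knockout and 7 to 11 in wildtype cells. For 24 h minus untreated it gave 33 to 35 and 34 to 35, and for 24 h minus 3 h 32 to 34 and 27 to 29.

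Knockout minus wildtype at 24 h also moved with the processing. It was 2 as reported, 0 with quantile normalization, with no filter on dim probes and with only the groups compared, 5 with the percentile over probes detected on all arrays, 5 with the replicate block, 10 with normexp background correction and 13 of 33 among probes well above background on all arrays. It was 0 to 13 with 1 array left out. Untreated, the 1 call was lost, to 0, with no filter, with the all-array filter, with only the groups compared and without any 1 array. At 3 h normexp gave 1, and leaving out 1 array gave 0 to 2. The difference of the 24 h response had 3 calls with the replicate block and 0 to 2 with 1 array left out, and that of the 3 h response had 0 with any 1 array left out. Over times, leaving out 1 mouse gave 0 to 21, the highest without knockout replicate 2, where the lone knockout mouse is assumed to vary like the wildtype mice. The block changed no other count of members by over 1.5 times. The cause of these shifts was not tested.

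Precision is limited by 2 mice per genotype and, for Cenpf and, in knockout cells, Ttk at 24 h, by signal near background. Cenpa has 1 knockout value at 24 h.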
